A study of Homo sapiens with 12 samples.

Results

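In HT-29 cells, 10 genes of the epidermal growth factor (EGF) signalling family were followed. They were the receptors EGFR, ERBB2 and ERBB3, the ligands AREG, EREG, TGFA, HBEGF, BTC and EPGN, and the inhibitor ERRFI1. They were chosen by gene symbol, and each matched 1 row of the expression table, so 10 of its 25528 rows are described. HT-29 is an established human colon adenocarcinoma line, and the labels give it as APC mutant. All cells were infected with lentivirus. The GFP (control) and CTNNB1 groups received an open reading frame and were collected 2 days later. The shNT1 (control) and shAPC groups carried a hairpin switched on by 2 µM doxycycline and were harvested 1 day later. There were 12 libraries in 4 groups of 3, with 1 CTNNB1 construct and 1 APC hairpin as far as the labels name them, and no statement of how the replicates arose. The p-values below therefore measure the spread between these libraries, which may be technical.

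EGF ligands are made as membrane-bound precursors, are released by proteases of the ADAM family and bind EGFR, ERBB4 or both. Ligand-bound receptors pair with each other, and ERBB2, which binds no known ligand, is a preferred partner of the kinase-impaired ERBB3. The receptors feed the RAS-MAPK and PI3K pathways, and ERRFI1 (also called MIG6) binds the EGFR kinase domain and blocks it. In colorectal cancer AREG and EREG are the best known ligands, and HT-29 carries an activating BRAF mutation below the receptors.

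Gene levels are given in TPM, which is scaled for gene length, so that levels of different genes can be compared. The depth of each library is unknown, and between 14756 and 16186 genes had a TPM above 0. Of 8 colon epithelium markers, 6 had a group mean of at least 1 TPM in every group, while the intestinal factors CDX1 and CDX2 were below 1 TPM throughout. Of 8 immune, endothelial and fibroblast markers, CD68 alone reached 1 TPM, and CD3E was at 0 in all libraries. CD68, listed here as a macrophage marker, fell from 26.96 ± 0.40 TPM with GFP to 13.2 ± 1.12 TPM with CTNNB1 (SD, n = 3 each, limma adjusted p = 2.36e-05). It fell from 13.8 ± 0.69 TPM with shNT1 to 7.52 ± 1.27 TPM with shAPC (limma adjusted p = 0.000668). PTPRC, another immune marker of the list, had group means of at most 0.0125 TPM. The summed level of these 8 markers, which was mostly CD68, ranged from 27.1 to 28.0 TPM in GFP and 12.7 to 14.5 in CTNNB1. It ranged from 13.7 to 15.1 TPM in shNT1 and 6.91 to 9.23 in shAPC, and its part in the results was not tested. The mean level of APC was 5.99 ± 0.56 TPM with its hairpin, against 16.4 ± 0.80 TPM with the shNT1 hairpin. CTNNB1 had a mean of 160 ± 4.2 TPM where it was introduced, against 146 ± 2.9 TPM with GFP.

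Several ligand genes moved alike under both perturbations, and EGFR moved oppositely. AREG, EREG and BTC rose and HBEGF fell in both arms. TGFA fell with the APC hairpin. EGFR rose in the CTNNB1 arm and fell in the shAPC arm. ERBB2, ERBB3 and ERRFI1 rose in the CTNNB1 arm and were not called in the shAPC arm.

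Fold changes are differences of mean log2(TPM + 1), tested with limma across all genes with a mean of at least 1 TPM, and a gene was called at a Benjamini-Hochberg adjusted p under 0.05. EPGN was below 1 TPM and was not tested, so 9 of the 10 genes were. In the CTNNB1 arm 8 of the 9 were called, 7 higher and 1 lower, where 23.5% of all 11624 genes tested were called, 16.3% higher and 7.16% lower. The groups did not overlap for all 9 genes there, 7 higher and 2 lower, beside 43.2% of all genes, 30.2% higher and 13% lower. In the shAPC arm 6 of the 9 were called, 3 higher and 3 lower, where 22.1% of all 11834 genes tested were called, 7.24% higher and 14.9% lower. The groups did not overlap for 6 of the 9, 3 higher and 3 lower, beside 40.9% of all genes, 14.5% higher and 26.4% lower. The genes were picked with earlier results of these data known, so these counts describe them and are no evidence that the family responds more than others. The median log2 fold change of the 9 genes was 0.23 in the CTNNB1 arm and -0.13 in the shAPC arm, beside 0.06 and -0.04 over all genes.

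**Figure D1:**
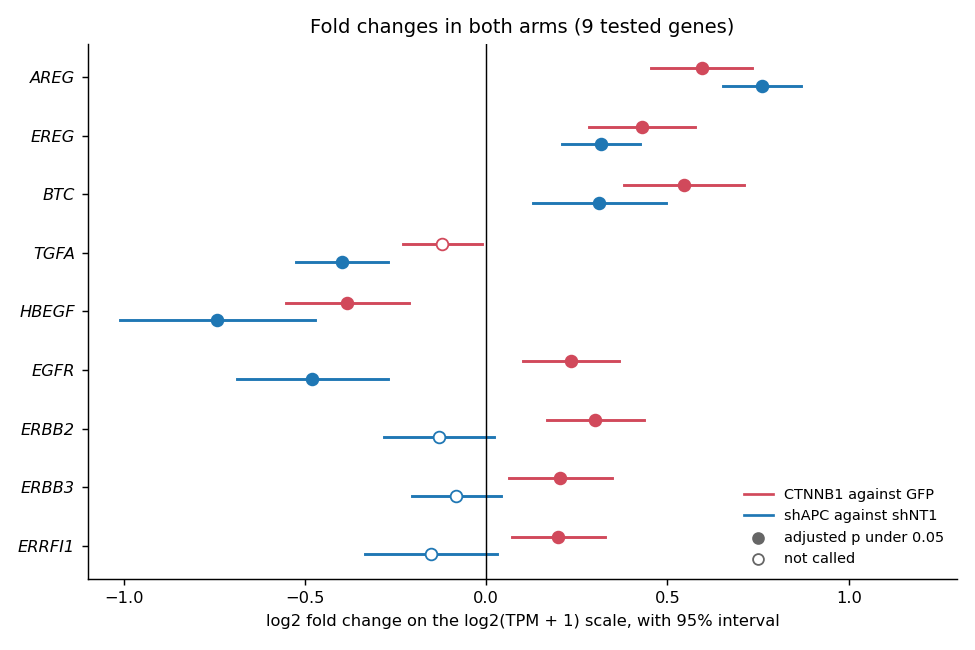
Log2 fold change of the 9 tested genes on the log2(TPM + 1) scale (x axis) in the CTNNB1 arm (red) and the shAPC arm (blue), with 95% intervals; filled points had an adjusted p under 0.05. AREG, EREG and BTC lie to the right of 0 and HBEGF to the left in both arms, while EGFR lies at 0.23 in one and -0.48 in the other.

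The ligand genes EPGN, EREG, AREG and BTC lie close together on chromosome 4. In GENCODE v29 (GRCh38) EPGN (ENSG00000182585) spans chr4:74308473-74315307, EREG (ENSG00000124882) spans chr4:74365143-74388751 and AREG (ENSG00000109321) spans chr4:74445134-74455009, all on the plus strand. BTC (ENSG00000174808) spans chr4:74744759-74794686 on the minus strand. EREG and AREG rose together while EPGN stayed near 0, and the 250 bases before each of these starts are therefore shown, 5′ to 3′, from RefSeq (GRCh38.p14). They cover chr4:74444886-74445135 for AREG, chr4:74364895-74365144 for EREG and chr4:74308220-74308469 for EPGN. Capitals mark the motif matches described next.
AREG: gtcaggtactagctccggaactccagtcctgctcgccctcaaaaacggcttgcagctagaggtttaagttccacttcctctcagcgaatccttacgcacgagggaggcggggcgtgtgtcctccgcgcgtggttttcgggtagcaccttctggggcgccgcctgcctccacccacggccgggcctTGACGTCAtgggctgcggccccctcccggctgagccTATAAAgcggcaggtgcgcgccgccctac
EREG: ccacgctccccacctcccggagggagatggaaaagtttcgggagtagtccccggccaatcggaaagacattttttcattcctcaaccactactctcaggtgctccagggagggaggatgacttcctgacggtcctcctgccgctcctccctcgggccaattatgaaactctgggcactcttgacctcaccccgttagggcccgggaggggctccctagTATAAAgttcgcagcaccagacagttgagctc
EPGN: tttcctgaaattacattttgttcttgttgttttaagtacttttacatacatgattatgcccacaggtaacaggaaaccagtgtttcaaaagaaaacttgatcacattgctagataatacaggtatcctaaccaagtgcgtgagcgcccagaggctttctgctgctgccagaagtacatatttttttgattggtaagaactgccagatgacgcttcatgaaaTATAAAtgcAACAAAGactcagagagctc

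Each of these windows holds the TATA motif TATAAA, beginning 29 bases before the start in AREG, 32 in EREG and 29 in EPGN. The AREG window also holds a CRE motif, TGACGTCA, the letters bound by CREB family factors, from 65 to 58 bases before the start. TCF/LEF was searched as CTTTGAA or as CTTTGAT, and likewise as CTTTGTA or as CTTTGTT. The EPGN window holds CTTTGTT on the minus strand, from 20 to 14 bases before the start. No TCF/LEF match was in the AREG or EREG window, and none of the motifs searched was in that of BTC (chr4:74794524-74794773). The BTC window runs past the GENCODE start of this minus-strand gene at 74794686, so part of it lies inside the gene. Searches covered both strands and included AP-1 (TGANTCA) and ETS (CCGGAAG), and no 2 matches overlapped. Over all 35116 windows of this length, 10.7% held TATAAA, 1.65% TGACGTCA, 12% a TCF/LEF, 6.57% an AP-1 and 8.52% an ETS match. TATAAA and TGACGTCA were added to the search after the sequences had been seen. Windows were matched for 9 of the 10 genes. The EGFR window at the main start (chr7:55018767-55019016) held 0 matches, while a second EGFR window, inside the annotated gene (chr7:55109589-55109838), held 2 AP-1 and 2 TATA matches. The ERBB2 window (chr17:39687844-39688093), which runs past the GENCODE start of the gene, held 1 AP-1 and 2 ETS matches.

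AREG encodes amphiregulin, a ligand of EGFR, and was the most abundant of the 10 genes in every library. It stood at 437, 466 and 446 TPM in the GFP libraries and at 740, 682 and 620 TPM in the CTNNB1 libraries. With the hairpins it stood at 462, 439 and 469 TPM in shNT1 and at 763, 781 and 776 TPM in shAPC. The controls were alike, and no perturbed library overlapped its controls. In the CTNNB1 arm AREG rose 1.51-fold in mean TPM (log2 fold change 0.59 with SE 0.06, limma adjusted p = 0.000171). With the APC hairpin it rose 1.69-fold (log2 fold change 0.76 with SE 0.05, limma adjusted p = 7.77e-06). Ordered by mean, shAPC was highest, then CTNNB1, shNT1 and GFP, and the 2 controls overlapped. RefSeq lists AREGB, the name of a former second copy, as a synonym of AREG, and how the authors' annotation treated it is not given in the sources used here.

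EREG encodes epiregulin, a ligand of EGFR and ERBB4, and was the second most abundant of the 10 in every library. Its levels were 188, 173 and 173 TPM in GFP and 263, 235 and 223 TPM in CTNNB1. They were 184, 182 and 182 TPM in shNT1 and 231, 235 and 218 TPM in shAPC. Again the controls overlapped each other and neither overlapped its perturbed group. By mean, CTNNB1 was highest, then shAPC, which it overlapped, shNT1 and GFP. The rise was 1.35-fold in the CTNNB1 arm (log2 fold change 0.43 with SE 0.07, limma adjusted p = 0.00151). It was 1.25-fold in the shAPC arm (log2 fold change 0.32 with SE 0.05, limma adjusted p = 0.00158). AREG and EREG kept both calls under every alternative run, including each left-out library.

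BTC encodes betacellulin, a ligand of EGFR and ERBB4, and was the weakest ligand that could be tested. Levels were 4.97, 4.57 and 4.88 TPM in GFP against 7.60, 7.18 and 7.65 TPM in CTNNB1. In the hairpin groups they were 5.70, 6.24 and 5.26 TPM in shNT1 against 7.27, 7.52 and 7.23 TPM in shAPC. Every perturbed library thus lay above every control library. CTNNB1 and shAPC overlapped at the top, and shNT1 lay above GFP. BTC rose 1.56-fold in mean TPM in the CTNNB1 arm (log2 fold change 0.55 with SE 0.07, limma adjusted p = 0.000766). With the APC hairpin the ratio was 1.28 (log2 fold change 0.31 with SE 0.08, limma adjusted p = 0.0241). The shAPC call was lost without a filter on low values (limma adjusted p = 0.061). It was also lost without shNT1 replicate 1 (limma adjusted p = 0.0648) or 3 (0.0538), and without shAPC replicate 1 (0.0538), 2 (0.0828) or 3 (0.063).

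EPGN encodes epigen, a further EGFR ligand, and was listed at or near 0. GFP held 0.123, 0 and 0 TPM, CTNNB1 0, 0.0706 and 0 TPM, and shNT1 0.0279, 0 and 0 TPM. The shAPC libraries held 0.0510, 0.0628 and 0.0318 TPM. All shAPC libraries lay above all shNT1 libraries, while GFP and CTNNB1 overlapped, with every value near 0. Since TPM keeps no depth, no detection limit can be set. EPGN lies between MTHFD2L and EREG, so it is the direct neighbour of an abundant ligand gene.

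**Figure D2:**
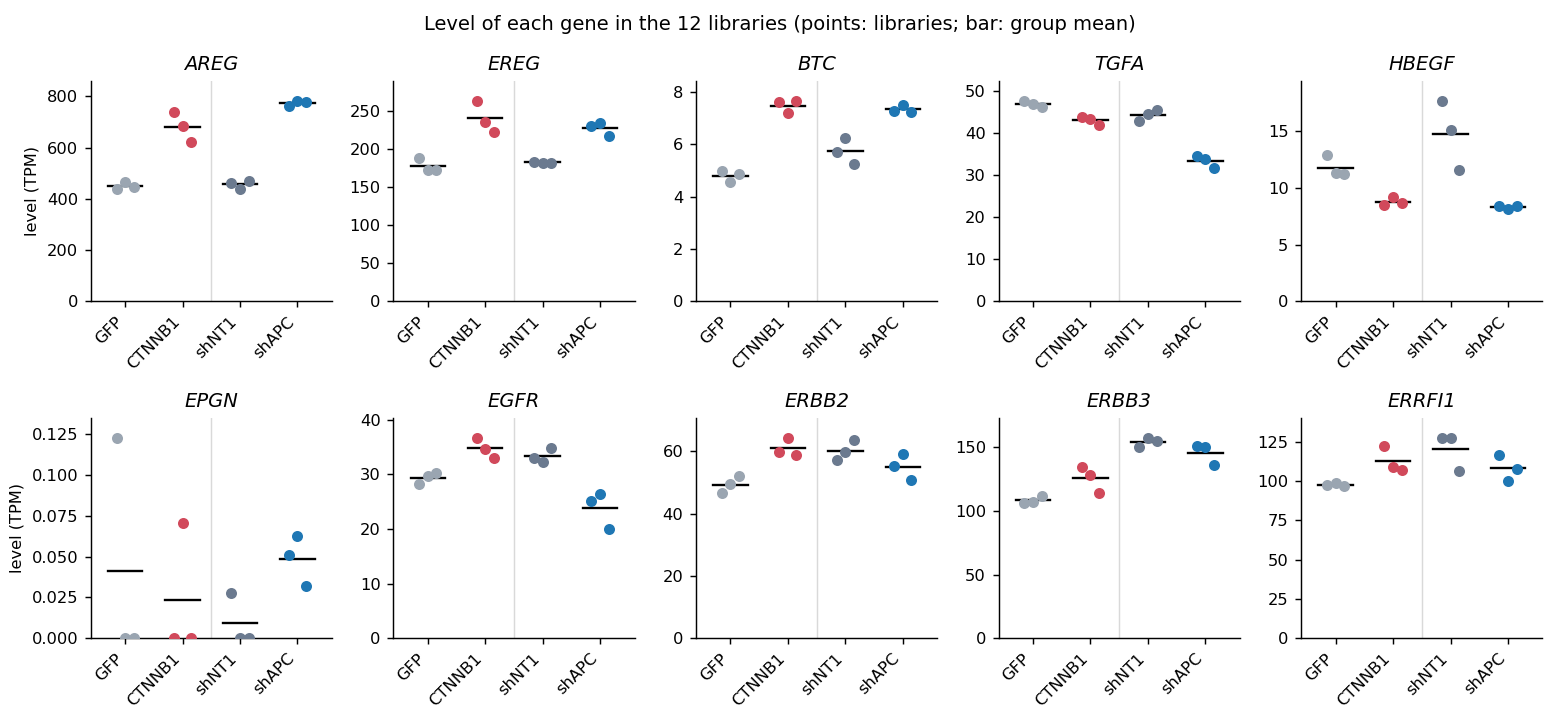
Level in TPM (y axis, from 0, with its own scale in each panel) of the 10 genes in the 12 libraries; points are libraries, bars are group means, and a grey line parts the 2 arms. AREG, EREG and BTC are higher and HBEGF lower in CTNNB1 than in GFP and in shAPC than in shNT1, and EGFR is lowest in shAPC.

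TGFA (ENSG00000163235, chr2:70447280-70554193, minus strand) encodes transforming growth factor alpha, which binds EGFR. Its levels were 47.7, 47.1 and 46.2 TPM in GFP and 44.0, 43.4 and 41.97 TPM in CTNNB1. They were 43.0, 44.6 and 45.5 TPM in shNT1 and 34.6, 33.9 and 31.8 TPM in shAPC. The shAPC libraries were the lowest of all 12, and in both arms the groups did not overlap. GFP was highest, and shNT1 and CTNNB1 overlapped between them. In the shAPC arm TGFA fell to 0.753 of its control mean (log2 fold change -0.40 with SE 0.06, limma adjusted p = 0.00108). In the CTNNB1 arm the value was -0.12 (SE 0.05, limma adjusted p = 0.101), not a call. That value passed under median-ratio scaling (-0.19, limma adjusted p = 0.0134), under quantile normalization (-0.16, 0.0332) and without CTNNB1 replicate 1 (-0.14, 0.0403).

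HBEGF (ENSG00000113070, chr5:140332843-140346631, minus strand) encodes heparin-binding EGF, a ligand of EGFR and ERBB4. It was at 12.9, 11.3 and 11.2 TPM in GFP and 8.497, 9.22 and 8.67 TPM in CTNNB1. In shNT1 it was at 17.6, 15.1 and 11.6 TPM, and in shAPC at 8.37, 8.19 and 8.39 TPM. Every perturbed library lay below its controls, and the shNT1 libraries were the most spread, with replicate 3 the lowest. By mean, shNT1 was highest, then GFP, which it overlapped, CTNNB1 and shAPC. HBEGF fell to 0.746 of the control mean in the CTNNB1 arm (log2 fold change -0.38 with SE 0.08, limma adjusted p = 0.00619). With the APC hairpin it fell to 0.562 of it (log2 fold change -0.74 with SE 0.12, limma adjusted p = 0.00213). Both calls held under every alternative run.

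Summed over the 6 ligands, the level was 691 ± 10.1 TPM in GFP and 981 ± 81.1 TPM in CTNNB1, a ratio of 1.42. It was 704 ± 15.1 TPM with shNT1 and 1050 ± 13.7 with shAPC (SD, n = 3 each), a ratio of 1.49. AREG and EREG together made up 90.8% ± 0.27 of this sum in GFP, 93.9% ± 0.40 in CTNNB1, 90.8% ± 0.46 in shNT1 and 95.3% ± 0.10 in shAPC. The AREG level was 2.53 ± 0.19 times that of EREG in GFP, 2.83 ± 0.06 times in CTNNB1, 2.50 ± 0.08 times in shNT1 and 3.40 ± 0.14 times in shAPC. TGFA made up 6.80% ± 0.10 of the ligand sum with GFP and 4.41% ± 0.26 with CTNNB1, and 6.30% ± 0.24 with shNT1 and 3.18% ± 0.13 with shAPC. These sums and shares are descriptions of RNA and were given no test. In bulk RNA, fewer cells expressing a gene and less RNA per cell cannot be told apart.

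**Figure D3:**
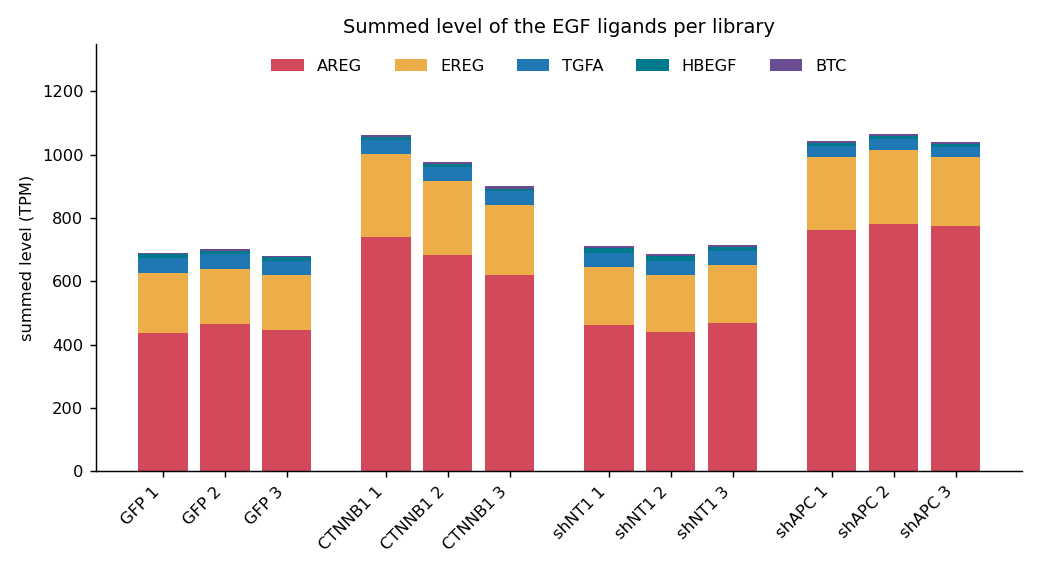
Stacked level in TPM (y axis, from 0) of 5 ligands in each of the 12 libraries (x axis, group and replicate); EPGN is too low to be drawn. The CTNNB1 libraries reach between 901 and 1063 TPM and the shAPC libraries between 1041 and 1066 TPM, all above the control libraries, and AREG and EREG make up nearly the whole bar.

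Among the receptors ERBB3 was the most abundant in every library, followed by ERBB2 and EGFR. EGFR (ENSG00000146648, chr7:55019021-55211628, plus strand) is the receptor that binds all 6 ligands described. It was at 28.1, 29.7 and 30.3 TPM in GFP and 36.7, 34.6 and 33.0 TPM in CTNNB1. In shNT1 it was at 33.0, 32.2 and 34.8 TPM, and in shAPC at 25.0, 26.5 and 19.9 TPM. The CTNNB1 libraries lay above GFP and the shAPC libraries below shNT1, without overlap in either arm. EGFR rose 1.18-fold in the CTNNB1 arm (log2 fold change 0.23 with SE 0.06, limma adjusted p = 0.02) and fell to 0.713 of its control mean in the shAPC arm (-0.48, SE 0.09, limma adjusted p = 0.00577). By mean, CTNNB1 was highest, then shNT1, GFP and shAPC, and CTNNB1 and shNT1 overlapped. The fall held under every alternative run. EGFR shares 186 exon bases with its antisense gene EGFR-AS1, which averaged 0.00741 TPM. The rise was lost when all 4 groups were fitted together (limma adjusted p = 0.0563) and without GFP replicate 1 (0.0894), GFP replicate 2 (0.0671) or CTNNB1 replicate 2 (0.061).

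ERBB2 (ENSG00000141736, chr17:39687914-39730426, plus strand) encodes the ligand-less partner receptor. Its levels were 46.5, 49.3 and 52.0 TPM in GFP and 59.8, 64.3 and 58.7 TPM in CTNNB1. They were 57.0, 59.9 and 63.7 TPM in shNT1 and 55.2, 59.1 and 50.7 TPM in shAPC. By mean, CTNNB1 was highest, then shNT1, shAPC and GFP, and each group overlapped the next. ERBB2 rose 1.24-fold in the CTNNB1 arm (log2 fold change 0.30 with SE 0.06, limma adjusted p = 0.00631), a call that held under every alternative run. In the shAPC arm the value was -0.13 (95% interval -0.28 to 0.02, limma adjusted p = 0.202). ERBB2 shares 571 exon bases with MIEN1 and 194 with PGAP3 on the opposite strand, and the labels do not say whether counting used strand, so reads there cannot be assigned with certainty. MIEN1 itself was not called, at -0.17 in the CTNNB1 arm (limma adjusted p = 0.177) and -0.05 in the shAPC arm (0.687).

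ERBB3 (ENSG00000065361, chr12:56076799-56103505, plus strand) encodes a receptor for neuregulins with little kinase activity of its own. It was at 106, 107 and 112 TPM in GFP and 135, 128 and 114 TPM in CTNNB1. In the hairpin groups it was at 150.4, 158 and 155 TPM in shNT1 and 151, 150.2 and 136 TPM in shAPC. The hairpin groups overlapped each other and lay above both open reading frame groups, which differ from them in vector, collection day and doxycycline. ERBB3 rose 1.16-fold in the CTNNB1 arm (log2 fold change 0.20 with SE 0.06, limma adjusted p = 0.0435), while its value in the shAPC arm was -0.08 (95% interval -0.21 to 0.04, limma adjusted p = 0.312). The rise kept its call under 6 of 14 alternatives. Adjusted p was 0.101 under median-ratio scaling, 0.135, 0.135 and 0.082 without GFP replicate 1, 2 or 3, and 0.0593 and 0.122 without CTNNB1 replicate 1 or 2 (limma).

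ERBB3 held the majority of the receptor RNA in all groups. It made up 58.0% ± 0.67 of the summed receptor level in GFP, 56.7% ± 1.46 in CTNNB1, 62.3% ± 1.04 in shNT1 and 65.0% ± 1.14 in shAPC (SD, n = 3 each). The EGFR share was 15.7% ± 0.21, 15.7% ± 0.46, 13.4% ± 0.46 and 10.5% ± 0.82 in the same order. The summed ligand level was 3.69 ± 0.17 times the summed receptor level in GFP and 4.43 ± 0.15 times in CTNNB1. It was 2.84 ± 0.11 times in shNT1 and 4.69 ± 0.29 times in shAPC.

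ERRFI1 (ENSG00000116285, chr1:8004404-8026308, minus strand), the feedback inhibitor, was at 97.4, 99.0 and 97.1 TPM in GFP and 122, 109 and 107 TPM in CTNNB1. It was at 128, 128 and 106 TPM in shNT1 and 117, 99.9 and 108 TPM in shAPC. The GFP libraries were the lowest and closest together, while shNT1, CTNNB1 and shAPC, in that order by mean, each overlapped the next. ERRFI1 rose 1.15-fold in the CTNNB1 arm (log2 fold change 0.20 with SE 0.06, limma adjusted p = 0.0325), while the shAPC value was -0.15 (95% interval -0.33 to 0.03, limma adjusted p = 0.21). The rise was kept under 6 of 14 alternatives, with an adjusted p of 0.0793 under median-ratio scaling, 0.1, 0.0927 and 0.1 without GFP replicate 1, 2 or 3, and 0.0543 without CTNNB1 replicate 2 (limma). ERRFI1 shares 155 exon bases with an antisense gene, AL034417.4. Without shNT1 replicate 3 the shAPC value became a call (-0.24, limma adjusted p = 0.027).

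Whether the arms differed was tested in 1 fit of all 12 libraries, by subtracting the change in the shAPC arm from that in the CTNNB1 arm. Of the 9 genes tested 5 were called, all with a positive difference, where 16.1% of all 11741 genes were called, 13.3% positive and 2.76% negative. EGFR differed most (0.71, SE 0.12, limma adjusted p = 0.00167), followed by ERBB2 (0.43, SE 0.09, 0.00833), and both were called under all 19 alternatives. ERRFI1 (0.35, SE 0.11, limma adjusted p = 0.0404), ERBB3 (0.29, SE 0.09, 0.0372) and TGFA (0.28, SE 0.07, 0.0172) also passed. None of these 3 passed under median-ratio scaling (limma adjusted p = 0.172, 0.118 and 0.0624), which moved the median difference over all genes from 0.11 to 0.004. ERBB3 was also lost without GFP replicate 1 or 2, CTNNB1 replicate 1 or 2, shNT1 replicate 2 or 3, or shAPC replicate 2 or 3 (limma adjusted p from 0.051 to 0.0973). ERRFI1 was lost without GFP replicate 1, 2 or 3, CTNNB1 replicate 1 or 2, shNT1 replicate 1 or 2, or shAPC replicate 2 or 3 (limma adjusted p from 0.0529 to 0.0976). Of the 19 alternatives, 7 kept the call for ERBB3, 6 for ERRFI1 and 17 for TGFA. With all libraries kept, the largest limma adjusted p for ERRFI1 was 0.186.

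For the other ligands no difference between the arms was called. The interval of the difference was -0.34 to 0.01 for AREG, -0.06 to 0.29 for EREG, 0.01 to 0.46 for BTC and 0.03 to 0.69 for HBEGF (95%, unadjusted). AREG became a call under median-ratio scaling (-0.28, limma adjusted p = 0.0269) and without CTNNB1 replicate 1 (-0.23, 0.0428), a smaller rise with CTNNB1. HBEGF became a call without shNT1 replicate 3 (0.51, limma adjusted p = 0.0107), a smaller fall with CTNNB1.

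AREG and HBEGF had the largest absolute fold changes of the 10 genes when the larger of the arms is taken, and the genes whose levels followed theirs were sought over the 12 libraries among 9436 others with a mean of at least 5 TPM. ACSL5 (Pearson r = 0.991), TSC22D1 (0.982) and PLPP1 (0.981) were closest to AREG. ACSL5 was at 271 ± 3.2 TPM with GFP and 371 ± 21.1 with CTNNB1, and at 278 ± 5.0 TPM with shNT1 and 403 ± 13.1 with shAPC (SD, n = 3 each). XBP1 (r = 0.940), CDKN2B (0.936) and S100A14 (0.925) were closest to HBEGF. Within the family AREG had an r of 0.913 with EREG and 0.873 with BTC, and -0.858 with HBEGF. These correlations describe 12 libraries that share 4 group means, and they carry no test.

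The remaining family genes were nearly silent outside 1 control group. EGF stood at 3.72, 4.11 and 4.50 TPM in GFP, against 0.725, 0.657 and 0.853 TPM in CTNNB1. NRG4, a neuregulin that binds ERBB4, stood at 5.32, 4.11 and 5.23 TPM in GFP, against 0.135, 0.227 and 0.0903 TPM in CTNNB1. In the 6 hairpin libraries EGF lay between 0.275 and 0.589 TPM and NRG4 between 0.130 and 0.318 TPM, too low to be tested in that arm. GFP thus stood apart from all other groups for both genes. The fitted difference between CTNNB1 and GFP was -1.55 for EGF and -2.35 for NRG4 on the log2(TPM + 1) scale. Both genes reached the mean of 1 TPM needed for testing only through the GFP libraries, so these values are a description. ERBB4, NRG1, NRG2 and NRG3 were at or below 0.02 TPM in all 12 libraries, NRG2 and NRG3 at 0.

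Of 7 genes that release ligands or control their release, 6 were tested. In the CTNNB1 arm 0 were called by limma, beside 23.5% of all genes, and 0 had an unadjusted p under 0.05. ADAM17, the main sheddase of AREG, EREG, TGFA and HBEGF, was at 52.2 ± 1.4 TPM in GFP and 51.0 ± 3.9 TPM in CTNNB1, and at 49.6 ± 2.6 TPM with shNT1 and 54.4 ± 3.0 with shAPC (SD, n = 3 each). With the APC hairpin 1 of the 6 was called, or 16.7% beside 22.1% of all genes, and 3 of the 6 had an unadjusted p under 0.05. RHBDF1 was at -0.16 (limma adjusted p = 0.0775) and FRMD8 at -0.17 (0.0909). The gene called was RHBDL2, a rhomboid protease able to cleave EGF, which fell from a mean of 15.2 ± 2.5 to one of 9.84 ± 1.12 TPM (log2 fold change -0.58 with SE 0.11, limma adjusted p = 0.00555).

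Of 24 signal transducers, all tested, 6 were called in the CTNNB1 arm (5 higher, 1 lower) and 10 in the shAPC arm (3 higher, 7 lower). That is 25% and 41.7% of the list, beside 23.5% and 22.1% of all genes. PLCG1, a phospholipase activated by the receptors, rose with CTNNB1 from 12.9 ± 0.28 to 18.6 ± 1.3 TPM (log2 fold change 0.50 with SE 0.07, limma adjusted p = 0.000695). PIK3R1, the p85 regulatory subunit of PI3K, also rose there (0.32, limma adjusted p = 0.00437), as did PIK3R2, another regulatory subunit (0.28, 0.0153), whose call was lost under median-ratio scaling, quantile normalization and without GFP replicate 1 or 2 or CTNNB1 replicate 2 (largest adjusted p 0.0696). These 3 genes were the ones called higher in the shAPC arm, PLCG1 at 0.29 (limma adjusted p = 0.0352), PIK3R1 at 0.20 (0.0364) and PIK3R2 at 0.28 (0.0342). Each of these calls was kept under 7 of 14 alternatives. All were lost without a filter, without a variance trend, with the replicate block, and without shNT1 replicate 1 or 2 or shAPC replicate 1. PLCG1 was also lost without shAPC replicate 3, and PIK3R1 and PIK3R2 without shAPC replicate 2 (largest limma adjusted p 0.12). MAP2K1, which encodes the kinase MEK1, fell most in the shAPC arm, from 107 ± 5.3 to 65.3 ± 3.4 TPM (-0.70, SE 0.06, limma adjusted p = 4.55e-05). HRAS (-0.41, limma adjusted p = 0.0021) and PIK3CB (-0.37, 0.00146) fell in the same arm. MAP2K1 differed between the arms by 0.59 (SE 0.07, limma adjusted p = 0.000194), and by 0.48 under median-ratio scaling (0.000273).

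Among 20 genes of receptor turnover, 4 were called in the CTNNB1 arm (2 higher, 2 lower) and 6 in the shAPC arm (1 higher, 5 lower), which is 20% and 30% of the list, beside 23.5% and 22.1% of all genes. LRIG1, a transmembrane inhibitor that promotes receptor degradation and marks intestinal stem cells, rose in both arms. Its mean was 14.4 ± 0.48 TPM with GFP and 22.8 ± 2.1 with CTNNB1 (log2 fold change 0.62 with SE 0.07, limma adjusted p = 0.000341) and 17.3 ± 1.7 TPM with shNT1 and 24.4 ± 1.2 with shAPC (0.48, SE 0.08, 0.0021). CBL, the ubiquitin ligase that tags activated EGFR, fell in the shAPC arm (-0.34, SE 0.08, limma adjusted p = 0.0119). In the CTNNB1 arm CBL rose by 0.31 (limma adjusted p = 0.0358), a call lost under median-ratio scaling and quantile normalization, without a filter or a variance trend, and without GFP replicate 1, 2 or 3 or CTNNB1 replicate 2 (largest adjusted p 0.122). The difference between the arms for CBL was 0.65 (SE 0.13, limma adjusted p = 0.00424) and was called under all 19 alternatives. CD2AP, an adaptor that binds CBL, fell in the shAPC arm (-0.51, limma adjusted p = 0.000171).

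The list of 10 genes commonly read as transcriptional output of MAPK signalling was tested for 9. Of these, 4 were called in the CTNNB1 arm, each of them higher, and 2 higher and 3 lower in the shAPC arm. These are 44.4% and 55.6% of the genes tested, beside 23.5% and 22.1% of all genes. PHLDA1, a pleckstrin homology-like domain gene, rose in both arms. Its means were 47.8 ± 2.2 TPM with GFP, 79.9 ± 9.7 with CTNNB1, 65.8 ± 0.77 with shNT1 and 102 ± 3.8 with shAPC (log2 fold changes 0.72 and 0.63, limma adjusted p = 0.000267 and 3.46e-05). DUSP6, the ERK phosphatase, rose with CTNNB1 from 40.4 ± 2.9 to 65.1 ± 9.7 TPM (0.67, limma adjusted p = 0.00138) and was at 66.6 ± 1.1 and 65.7 ± 3.7 TPM in shNT1 and shAPC. DUSP4, another MAPK phosphatase, was at 9.47 ± 0.35 TPM with GFP and 11.97 ± 0.62 with CTNNB1 (0.31, limma adjusted p = 0.0107), and fell with the APC hairpin from 13.4 ± 0.52 to 9.26 ± 0.20 TPM (-0.49, 0.000841). CCND1, the cell cycle gene for cyclin D1, rose with CTNNB1 (0.57, limma adjusted p = 5.83e-05) and with the APC hairpin (0.22, 0.0105), the second call being lost without shNT1 replicate 1 (0.0507).

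SPRY4, a Sprouty inhibitor of RAS signalling, fell in the shAPC arm from 24.7 ± 0.81 to 17.8 ± 1.7 TPM (-0.45, limma adjusted p = 0.00249). The difference between the arms was 0.80 for DUSP4 (limma adjusted p = 9.43e-05), 0.69 for DUSP6 (0.00265), 0.59 for SPRY4 (0.0044) and 0.34 for CCND1 (0.00394). CCND1 rose in both arms, and more in the CTNNB1 arm. Each of these 4 differences was called under all 19 alternatives. GFP had the lowest mean of the 4 groups for PHLDA1, DUSP6, SPRY4 and CCND1.

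**Figure D4:**
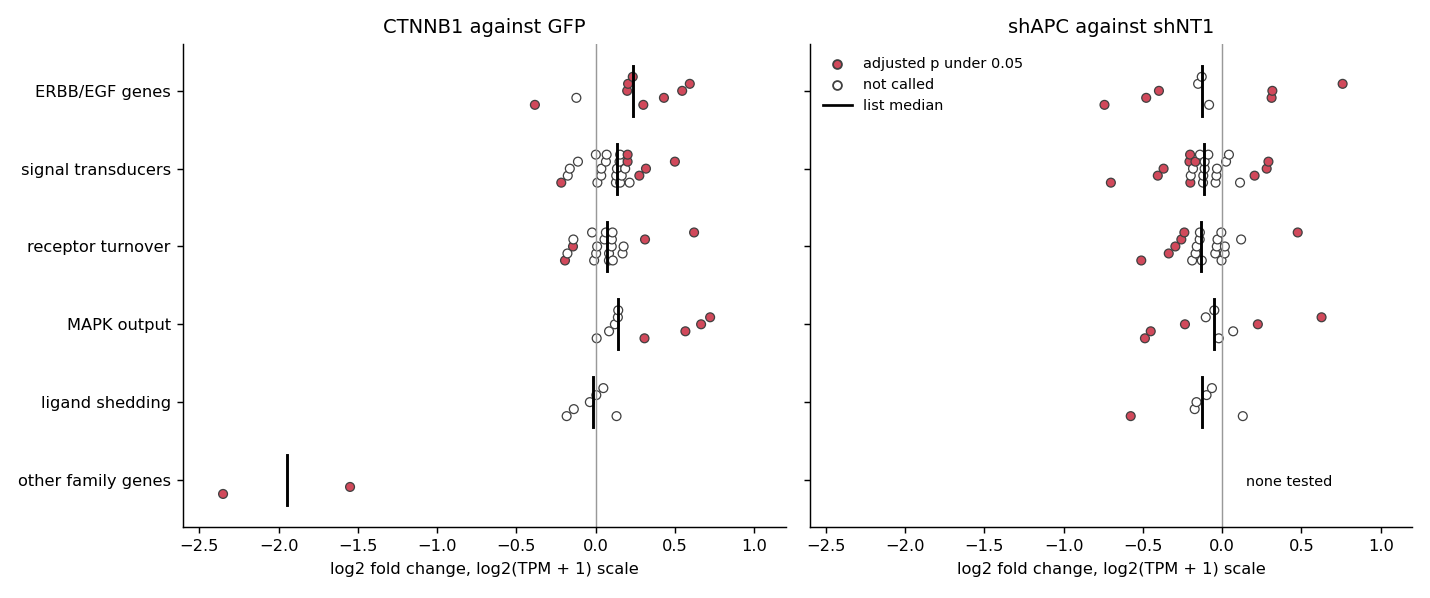
Log2 fold change on the log2(TPM + 1) scale (x axis) of each tested gene in the family and in 5 pathway lists, in the CTNNB1 arm (left) and the shAPC arm (right); red points had an adjusted p under 0.05 and black bars are list medians. The 2 other family genes tested in the CTNNB1 arm, EGF and NRG4, lie far to the left at -1.55 and -2.35. They could be tested only through the GFP libraries, so their points are a description. The list medians of the transducers are 0.13 and -0.12.

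In the authors' deposited table for the CTNNB1 comparison the same directions were listed for all 9 tested genes as in the TPM-based values. In the authors' deposited table TGFA fell there by 0.20 on the log2 scale (adjusted p = 0.00972), and ERBB2 (0.24, 0.0597), ERRFI1 (0.13, 0.0957) and ERBB3 (0.14, 0.181) missed 0.05. In the authors' deposited table for the APC comparison AREG was at 0.80 (adjusted p = 0.000795) and EGFR at -0.46 (0.0413), and HBEGF, at -0.78, missed 0.05 (0.0681).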

How the data were processed

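Per the submitters' processing notes, reads were aligned with STAR 2.7.3a to hg38 and limma was used. The annotation and the step from alignments to TPM are not given in the sources used here. The authors deposited a table of TPM for 12 libraries and a limma table for each comparison, holding log2 fold changes and p-values per the file headers. Their moderated t and log-odds score columns, also deposited, were not used. From the TPM, log2(TPM + 1) was fitted with limma 3.58.1 in R 4.3.3, with a mean-variance trend, for genes with a mean of at least 1 TPM. Each arm was fitted alone, and the difference between the arms in a fit of all groups. The pseudocount of 1 understates the change of low genes. Coordinates come from GENCODE v29 (GRCh38), whose Ensembl identifiers matched the authors' for all 10 genes. The fit was tested on simulated data with planted changes larger than those fitted for the 10 genes, so that test says nothing on smaller changes. The genes, lists and tests were chosen with earlier results of these data known. Named pathway genes were taken from up to 3 called rises and 3 called falls per list and arm, beside all genes of the smaller ERBB family list. Outside this rule, ADAM17 was named after its values were seen. RHBDF1 and FRMD8, which were not called, were named for their unadjusted p in the shAPC arm. Closest genes were the 3 with the highest r. The alternatives used a pseudocount of 0.1, every gene unfiltered, a minimum of 5 TPM, median-ratio and quantile scaling, no trend, a replicate block, 1 fit of all groups and each library left out.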

Additional observations from a re-analysis of the deposited data

Results flagged for a closer look

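Each result here is a gene with unlike changes in the arms, by a limma test of that difference itself (CTNNB1 arm minus shAPC arm, log2, Benjamini-Hochberg adjusted over 11741 genes). EGFR differed by 0.71, with a rise called in one arm and a fall in the other. ERBB2 differed by 0.43. The difference was 0.35 for ERRFI1, 0.29 for ERBB3 and 0.28 for TGFA. TGFA was lower in all 3 perturbed libraries than in all 3 controls in both arms, so its difference is one of size. Vector, collection day and doxycycline differed between the arms and cannot be told apart from the perturbation in these differences.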

How the results depend on the processing

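None of the 9 tested genes changed direction under any alternative run. Over the alternatives that kept all libraries, between 6 and 9 of the 9 tested genes were called in the CTNNB1 arm and between 5 and 6 in the shAPC arm. With 1 library left out the counts were 5 to 8 and 5 to 6. For the difference between the arms the count of 5 became 3 without a filter, 3 under median-ratio scaling, 2 under quantile normalization and 3 without a variance trend, and 3 to 5 with 1 library left out. Median-ratio scaling called 5 higher and 2 lower in the CTNNB1 arm, against 7 and 1, and 2 positive and 1 negative for the difference, against 5 and 0. All genes called numbered 2730, 2615 and 1885 in the CTNNB1 arm, the shAPC arm and their difference, and 1499 to 3190, 1484 to 2252 and 995 to 2143 with 1 library left out. The split of all genes in the CTNNB1 arm went from 1898 higher and 832 lower to 1254 and 1461 under median-ratio scaling, in the shAPC arm from 857 and 1758 to 1264 and 1589, and for the difference from 1561 and 324 to 786 and 650. Over the 5 pathway lists 16 of 61, 22 of 59 and 20 of 61 tested genes were called, beside 23.5%, 22.1% and 16.1% of all genes. With 1 library left out 8 to 22, 15 to 21 and 12 to 24 of these pathway genes were called. Their split went from 11 higher and 5 lower to 7 and 9 under median-ratio scaling in the CTNNB1 arm, from 6 and 16 to 8 and 12 under quantile normalization in the shAPC arm, and from 18 and 2 to 9 and 5 under median-ratio scaling for the difference. EGF and NRG4 count among the lower genes in the CTNNB1 arm and in the difference. Both reached the mean of 1 TPM only through the GFP libraries, so their calls are a description. With a minimum of 5 TPM the pathway split was 11 and 3 in the CTNNB1 arm and 18 and 0 for the difference. Under median-ratio scaling the summed ligand ratio went from 1.42 to 1.35 in the CTNNB1 arm and from 1.49 to 1.54 in the shAPC arm. The causes of these changes were not tested.

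In a check on deviations from group means, same-numbered libraries were no more alike than others in the shAPC arm. Correlations this weak, from 3 libraries per group, cannot exclude a pairing by number in either arm. Correlations of same-numbered libraries were 0.0697 to 0.216 in the CTNNB1 arm, where each library correlated best with its own number. For GFP replicate 2 this was by 0.0697 against 0.0686 with CTNNB1 replicate 3. They were -0.206 to -0.00638 in the shAPC arm, where no library correlated best with its own number. With the replicate block, 8, 5 and 5 of the 9 tested genes, 2895, 1767 and 1752 of all genes and 15, 14 and 18 pathway genes were called. BTC lost its shAPC call (limma adjusted p = 0.0528).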

Other observations

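The neighbourhood of the chromosome 4 ligands was looked at after the values had been seen. Within 500 kb on either side of the stretch from EPGN to BTC, 14 protein-coding genes are annotated, 4 of them ligands, and 5 of the other 10 were expressed highly enough to be tested. The neutrophil-attracting chemokine genes CXCL1, CXCL2 and CXCL3, whose transcription starts lie between -575.7 and -345.8 kb of the AREG start, had higher means in both perturbed groups, from low levels. CXCL1 was at 2.97 ± 0.40 TPM with GFP and 7.003 ± 0.87 with CTNNB1 (log2 fold change 1.01, limma adjusted p = 0.000199) and at 2.69 ± 0.62 TPM with shNT1 and 7.19 ± 0.57 with shAPC (1.16, 0.000194; SD, n = 3 each). CXCL2 differed by 0.62 and 0.80 (limma adjusted p = 0.0157 and 0.00137), and in the CTNNB1 arm it reached the mean of 1 TPM needed for testing only through the CTNNB1 libraries, so that p supports nothing. CXCL3 differed by 0.91 and 0.97 (0.0202 and 0.000654). In the CTNNB1 arm CXCL2 lost its call under quantile normalization and without GFP replicate 1 (largest adjusted p 0.0594), and CXCL3 without a filter and without GFP replicate 2 or 3 (0.0801). Reads could be split among these 3 close paralogs, which leaves each value uncertain.

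MTHFD2L, next to EPGN, rose by 0.26 in the CTNNB1 arm (limma adjusted p = 0.0327), a call lost under median-ratio scaling (0.0638), quantile normalization, no filter, and without GFP replicate 1, 2 or 3 or CTNNB1 replicate 2 (largest adjusted p 0.136), and was at 0.10 in the shAPC arm (0.396). PARM1, beyond BTC, fell in the shAPC arm from 7.64 ± 0.57 to 4.19 ± 0.31 TPM (-0.73, limma adjusted p = 0.000382) and was at -0.06 in the CTNNB1 arm (0.644). CXCL5 and PF4V1 were listed at 0 in all 12 libraries.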
